A study of Mus musculus with 20 samples.

Results

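The baseline described here is the transcriptome of Ehmt2Cntr embryos, the controls of a study of maternal EHMT2 (G9a), an enzyme that methylates lysine 9 of histone H3. The members were the samples labelled with a wild-type maternal Ehmt2 genotype for which a gene count file was at hand. These were embryos 1 to 3 and 5 to 10, so 9 of the 19 single embryos with counts, while control embryo 4 was not analysed here. Each was collected at E2.5 with 8 cells (8C). The mothers of controls carried 1 conditional and 1 wild-type Ehmt2 allele (Ehmt2F/+) together with Zp3-Cre, which acts in growing oocytes, and the fathers were Ehmt2+/-. The zygotic genotype was +/- in 3 controls (embryos 1, 3 and 10) and +/+ in 6. The controls therefore shared the transgene and a mixed genetic background, and only embryos of normal 8C morphology were taken, after removal of the zona pellucida. The other 10 embryos, from mothers whose oocytes lost Ehmt2 (Ehmt2Mat), were used for a single purpose, to see the spread of the same genes in other embryos. Their zygotic genotype was -/- in some and +/- in the others, and all were fitted as a single group.

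At the 8C stage the mouse embryo has already activated its own genome and cleared most of the messages that the oocyte had stored. Its blastomeres flatten against each other in compaction and acquire an apical pole, and this precedes the split between trophectoderm, the future placental epithelium, and inner cell mass. Gap junctions appear at compaction, and energy is drawn from mitochondria inherited from the oocyte.

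Libraries held 12985149 to 30053248 gene counts (median 16515440), so 3 counts in an embryo were worth between 0.0985 and 0.263 CPM, the counts scaled to a common library total of 1e6. These limits cover counting error only, since amplified reads are not independent molecules. Of 34937 annotated genes, 16155 had no count in any control, and 7567 reached 1 CPM in all 9 embryos, 4950 reached 10 CPM and 1132 reached 100 CPM. The number of genes with a count was between 12068 and 13230 in 8 of the embryos and 16142 in embryo 10. The Pearson correlation across genes of log2 CPM was between 0.733 (embryos 7 and 9) and 0.890 (embryos 6 and 8) for the 36 pairs, so no pair looked like 1 library deposited in duplicate. Each gene's counts were amplified with a bias to the 3′ end of transcripts, and CPM per kilobase below divides by the full exon length of the file, so it orders genes only roughly. Some genes known to have many processed pseudogenes had few counts, among them Gapdh with 40 counts over all controls, Ppia at a mean of 8.00 CPM, Ldha at 8.41 CPM and Pgk1 at 4.25 CPM. For transposable elements the paper kept only uniquely mapping reads. Whether the alignment behind these gene counts also dropped reads with several matches is not stated, and its part in the levels and class shares was not tested.

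Embryo 10 stood apart in genes of other cell types. Its summed level over the 9 fibroblast markers was 131 CPM, against 0 to 9.08 CPM (median of all embryos 0.136) elsewhere, with decorin (Dcn), a matrix protein, at 53.1 CPM there and at most 0.182 CPM in any other embryo. Its 8 oviduct markers summed to 460 CPM against 0.768 to 39.1 CPM, most of it Ovgp1, the oviductal glycoprotein that coats embryos in the tract, at 383 CPM. Embryo 9 had 30.4 CPM of Ovgp1 and the other 7 had 0.0452 to 5.37 CPM. Blood and immune markers summed to 125 CPM in embryo 10 and 44.4 to 95.1 CPM elsewhere. Csf1r, which all embryos carried at 41.9 to 94.8 CPM, gave 60.1 CPM of the total in embryo 10. Its exons overlap those of Hmgxb3 by 871 bases and counting did not use strand, so part of these reads cannot be told apart. Lysozyme (Lyz2) was at 32.3 CPM in embryo 10 and at most 0.154 CPM in the others, and Cd14 of monocytes reached 13.1 CPM there. Of 18 cumulus and granulosa markers, 10 had no count in any control, among them the defining Inhba, Amh, Foxl2 and Fst, and Inha had 7 counts over all controls. Only Nr5a2 and Amhr2 of that list had a mean of at least 1 CPM. The markers of the 8C embryo were present, with Pou5f1, Klf5, Tead4, Tfap2c and Dppa3 measured in every embryo, while Cdx2 was near 0 in 6 of them. The part of the foreign markers in any spread below was not tested, and the numbers of high- and low-variance genes are also given without embryo 10. The profiles and gene lists below include it.

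The genes of the mitochondrial genome dominated the libraries. They took 12.6% ± 4.81 (SD, n = 9) of all gene counts and 28.6% ± 9.57 (SD, n = 9) of CPM per kilobase. The lowest share was 6.47% in embryo 1 and the highest 20.4% in embryo 8, a 3.15-fold range, with embryo 3 (6.67%) next to embryo 1 and embryo 5 (18.8%) next to embryo 8. The 7 genes with the highest mean CPM were all mitochondrial. The large ribosomal RNA mt-Rnr2 led with 30740 CPM ± 15900 (SD, n = 9), followed by mt-Nd1 (23500 ± 11610), a complex I subunit, mt-Cytb of complex III (22710 ± 11330) and mt-Co1 of complex IV (15750 ± 6634). Per kilobase mt-Nd1 was highest, at 24560 CPM per kb ± 12130. For mt-Co1 51.1% and for mt-Nd4 62.2% of their 50-base windows also lie in other annotated transcripts, so their levels are uncertain. The tRNA gene mt-Tl1 (75 bases) also ranked high, with 16710 CPM per kb, but it directly abuts mt-Rnr2 and mt-Nd1, and a read was counted for every gene it overlapped by 10 bases.

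Among nuclear genes no single class came near that share. Translation factors took 2.70% ± 0.257 (SD, n = 9) of counts, the ubiquitin system 2.53% ± 0.107, splicing factors and hnRNPs 2.45% ± 0.173, ribosome assembly factors 2.23% ± 0.139, cell cycle genes 2.20% ± 0.167, cytosolic ribosomal proteins 2.12% ± 0.471 and chaperones 2.10% ± 0.283. Gene models with only a systematic name (Gm and Rik) took 2.83% ± 0.367, and genes that fell in no class took 58.6% ± 3.47. The 1369 receptors of smell, taste and pheromones took 0.00079% of counts, the lowest share of any class. Protein-coding genes took 94.8% ± 1.33, mitochondrial rRNA 3.18% ± 1.43 and lincRNA genes 0.315% ± 0.0693.

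**Figure D1:**
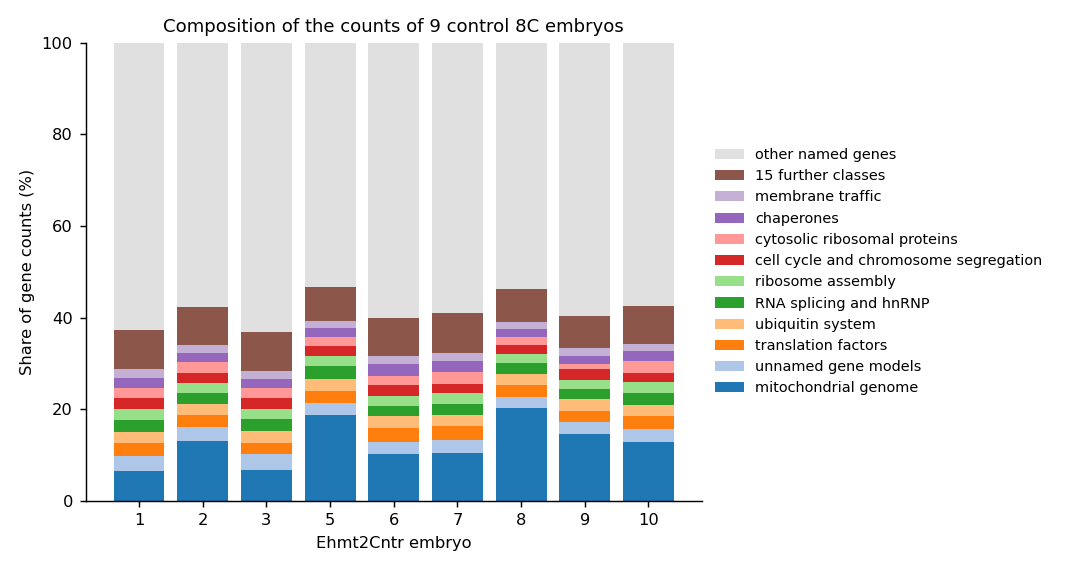
Share of each embryo's gene counts (percent, y axis) held by functional classes in the 9 Ehmt2Cntr embryos (x axis), each bar adding to the whole of the library. The mitochondrial genome ranges from 6.47% in embryo 1 to 20.4% in embryo 8, a 3.15-fold range against 1.14-fold for the ubiquitin system, and genes of no class make up 58.6% on average.

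The nuclear genes at the top joined household functions with genes particular to the early embryo. Fbxo15, an F-box gene known as a target of Pou5f1 and Sox2, had 3830 CPM ± 1041 (SD, n = 9), the highest of all nuclear genes, and 2665 CPM per kb ± 725. Gpd1l, which acts on glycerol phosphate, followed with 3697 CPM ± 956, then the chaperone Hsp90ab1 with 3319 CPM ± 1230 and the nucleic acid binding protein Cnbp with 3018 CPM ± 711. Rack1 of the small ribosomal subunit, Prps1 of nucleotide synthesis, the alkaline phosphatase Alppl2 and the autophagy receptor Calcoco2 filled the top 15 at 2577 to 2825 CPM. Per kilobase Dppa3 (Stella), a maternal protein that protects the methylation of the maternal genome, had 2163 CPM per kb ± 636 and the ribosomal protein Rpl8 had 2041 CPM per kb ± 603. A pair of short models that also ranked high per kilobase lie inside abundant genes. All of Gm26377 (108 bases) overlaps Eef1a1 and all of Gm22133 (109 bases) overlaps Ftl1, so their 2750 and 2494 CPM per kb cannot be told apart from the reads of those genes.

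Named leaders of other classes were as follows. Obox6, a homeobox gene of the cleavage-stage Obox family, had 1202 CPM per kb ± 309 (SD, n = 9), and Pramel6 of the Pramel family had 315 ± 135. Among lineage genes the trophectoderm list was led by Hand1, a regulator of trophoblast giant cells, with 333 CPM per kb ± 165, and Tead4, the Hippo pathway partner that switches on Cdx2, with 64.1 ± 16.0. The primitive endoderm list was led by Gata6 with 179 CPM per kb ± 74.9, ahead of Gata4 with 51.2 ± 19.4. The pluripotency list was led by Dppa4 (208 ± 52.4) and Dppa2 (202.5 ± 88.9). The core factors Pou5f1 (64.0 ± 49.5) and Nanog (21.9 ± 12.7) lay lower, and Sox2 had only 0.918 CPM per kb ± 1.61. Oocyte messages were still measurable, with Zp3 of the zona pellucida at 35.8 CPM per kb ± 29.4. The Zscan4 genes of the 2-cell stage were near 0, at a mean CPM of 1.84 for Zscan4d, 0.558 for Zscan4f and 0.329 for Zscan4c.

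Ehmt2 itself was measured in all 9 controls, at 66.5 CPM in embryo 2, a median of 132.7 CPM and 247 CPM in embryo 6. The embryos with the zygotic genotype +/- had 132.7, 143 and 159 CPM, inside the range of the +/+ embryos. Its spread was that of other genes of its level, with a dispersion 1.00 times the trend defined below. Its partner Ehmt1 had 77.9 CPM ± 27.3 (SD, n = 9) and a dispersion 0.636 times the trend. Of the 18 genes of H3K9 methylation, 15 could be tested for spread and 0 were highly variable, where 2.06% of all genes tested were. At that share, 0 of 15 says little about these genes. The most abundant of them was Trim28, the corepressor of KRAB zinc finger proteins, with 158 CPM per kb ± 35.5.

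The spread between controls was measured by the negative binomial dispersion, which leaves out the counting noise of reads. A gene's own dispersion was divided by the trend over all genes at its mean level, and a gene was called high-variance at a ratio of at least 3 and low-variance at a ratio of at most 1/3. These are rules of size and not tests. Single embryos were amplified once each, so noise of amplification and differences between embryos cannot be told apart. The filter on low counts kept 7880 genes, those with about 10 counts or more in every embryo. Along the trend the biological coefficient of variation, the square root of the dispersion, fell from 0.684 for rare genes to 0.353 for abundant genes (median 0.525). High variance was called for 162 genes (2.06%) and low variance for 952 genes (12.1%). Not all of the 162 calls are separate, since some of these genes share exons. Sp6 and Gm11532 overlap by 3329 bases and Smap1 and B3gat2 by 2076 bases. Rbm14 overlaps Gm21844, and Mfsd14a overlaps Gm42457. Of the 162, 43 stayed at or above 3 in all 9 fits that left out 1 embryo, and 52 fell under 3 in exactly 1 of those fits. Embryos 7 and 9 carried 15 such genes each, embryos 3 and 8 carried 7 each, embryos 1 and 10 carried 3 each, embryos 2 and 6 carried 1 each and embryo 5 carried 0. Without embryo 10 the call gave 176 high-variance genes, of which 149 were among the 162.

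**Figure D2:**
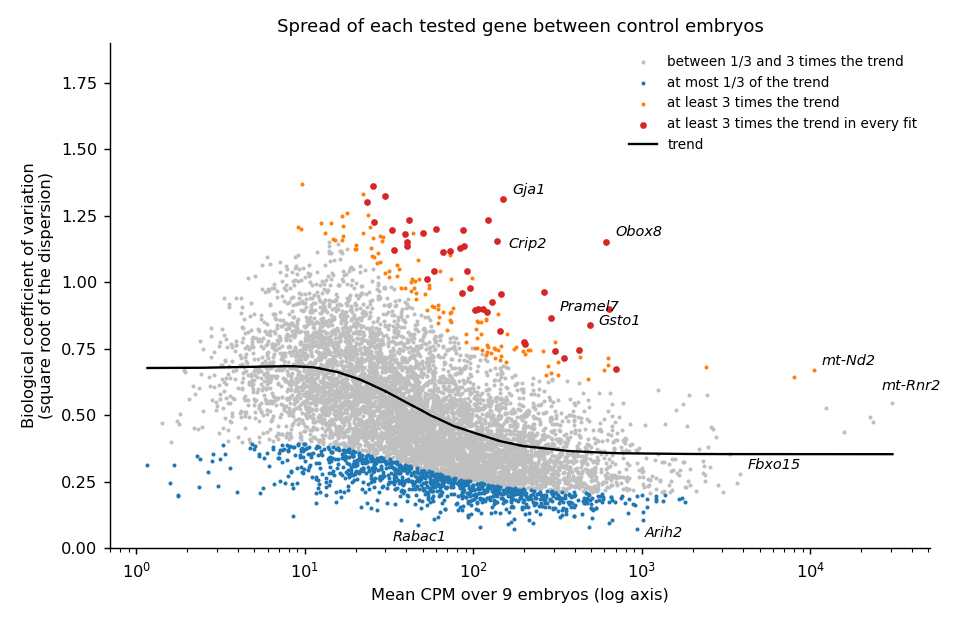
Biological coefficient of variation between the 9 Ehmt2Cntr embryos (y axis) against mean CPM (x axis, log scale), 1 point per tested gene that has a symbol, with the trend as a line. The 43 genes that stay high in every fit lie far above the trend at levels from 23.3 to 706 CPM, among them Gja1, Obox8 and Crip2, while Fbxo15 lies under the trend line and Rabac1 and Arih2 lie near the bottom.

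Ordered by the lowest ratio over all fits, so that no single embryo could set the order, the leading gene encodes a gap junction protein. Gja1 (connexin 43, ENSMUSG00000050953, GRCm38/mm10 chr10:56377300-56390419) had a ratio of 10.8 and never fell under 9.48 when an embryo was left out. It had 6.18 CPM in embryo 1, 9.94 in embryo 3, 21.1 in embryo 7, 25.6 in embryo 2, 40.8 in embryo 5, 81.4 in embryo 6, 353 in embryo 9, 406.5 in embryo 8 and 409.5 in embryo 10. The 3 highest embryos stood clear of the other 6, and the highest was 66.2 times the lowest.

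Obox8 (chr7:14331436-14333557), a cleavage-stage homeobox gene, had a ratio of 10.4, close to that of Gja1. It had 17.2 CPM in embryo 6, 24.6 in embryo 7, 104 in embryo 8 and 547 to 1310 CPM in the other 6, so embryos 6 and 7 stood lowest for Obox8. Tfcp2l1, a transcription factor of naive pluripotency, had 347 CPM in embryo 7, 151 in embryo 8 and 141 in embryo 6 against 5.39 to 48.5 CPM elsewhere (ratio 7.16). Id3, an inhibitor of helix-loop-helix factors that responds to BMP signals, had 36.5 CPM in embryo 2, a median of 147 CPM and 1021 CPM in embryo 7 (ratio 6.61). Pramel7, of the Pramel family, had 43.9 CPM in embryo 7, a median of 162 CPM and 717 CPM in embryo 8 (ratio 5.39). All 24 of the most variable genes kept a ratio of at least 3 in each of 10 other ways of fitting or filtering.

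The 162 high-variance genes were grouped by the shape of their profile over embryos (hierarchical clustering of scaled log2(CPM + 1), cut into 4 groups). The groups describe the same values on which the genes were called, and with 4 groups imposed they carry no test. Of the 43 genes that stayed high in every fit, profile A held 11, B held 5, C held 12 and D held 15. Profile A held 48 genes, on average 2.01 log2 units above their own mean in embryo 7 and 1.36 in embryo 6, and 1.09 below it in embryo 9. Besides Tfcp2l1 and Id3 it held Gsto1, a glutathione transferase (81.1 to 1505 CPM), Crip2 (11.2 to 670 CPM), and the epithelial genes Cldn7 of tight junctions (30.95 to 331 CPM) and Perp of desmosomes (2.52 to 107 CPM). Amot and Amotl2, angiomotins that tie Hippo signalling to cell junctions, were also in it. Amot had 6.38 CPM in embryo 3, a median of 40.7 CPM and 128.5 CPM in embryo 7, while Amotl2 was highest in embryo 9, at 130 CPM. The chromatin genes Jarid2 (121 to 1206 CPM), of Polycomb complex 2, and Tet2 (1.05 to 59.2 CPM), which oxidises methylated cytosine, completed the named examples. The calls of Perp and Jarid2 rested on embryo 7. The ratios of Cldn7, Amotl2 and Tet2 also fell under 3 in fits that left out an embryo.

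Profile B held 21 genes and ran the other way, 1.68 log2 units above their mean in embryo 3 and 1.23 in embryo 1, and 1.38 below it in embryo 7 and 1.33 in embryo 6. Obox8 was its leader. Oog3, an oocyte-specific gene, had 11.4 CPM in embryo 6, 12.7 in embryo 7 and 28.7 to 169 CPM in the others. Klf17, a Krüppel-like factor of oocytes and cleavage stages, had 16.4 CPM in embryo 6 and 28.4 in embryo 7 against 61.6 to 248.5 CPM. The ratios of Oog3 and Klf17 fell under 3 in at least 1 fit that left out an embryo. Apela, a peptide hormone gene of pluripotent cells, had 1.08 CPM in embryo 7 and 143 CPM in embryo 3. The profile also held 3 overlapping models on chromosome 17, CT010467.1, Gm42418 and AY036118. CT010467.1 is itself a ribosomal RNA model, and the last pair are known to collect reads of ribosomal RNA. The part of ribosomal RNA carried into the libraries was not tested. CT010467.1 had 33.7 CPM in embryo 10, a median of 555 CPM and 1696 CPM in embryo 3, and since the models share exons these 3 calls are not separate.

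Profile C held 49 genes, 2.25 log2 units above their mean in embryo 9 and 1.21 in embryo 8, and 1.46 below it in embryo 7. Profile D held 44 genes, 1.84 log2 units below their mean in embryo 1 and 2.16 in embryo 3, and 1.19 to 1.56 above it in embryos 8, 9 and 10. Embryos 1 and 3 share the zygotic genotype +/- with embryo 10, which lay on the other side in profile D. In profile C, Sp3, a widely expressed activator, had 1.77 CPM in embryo 7, 2.14 in embryo 1 and 128 CPM in embryo 8. Bmi1, of Polycomb complex 1, had 18.0 CPM in embryo 1, a median of 45.7 CPM and 293 CPM in embryo 9. Hells, a chromatin remodeller needed for DNA methylation, had 24.8 CPM in embryo 7 and 260 CPM in embryo 8. In profile D, besides Gja1, Zfp51 had 5.397 CPM in embryo 3 and 331 CPM in embryo 9, and Sept7, a cytoskeletal septin, had 2.82 CPM in embryo 3 and 206 CPM in embryo 8. Ube3a, a ubiquitin ligase, was in profile D (2.94 to 147 CPM) and the noncoding Snhg14 was in profile C (1.16 to 93.0 CPM). The exons of the pair overlap by 1803 bases on opposite strands and counting did not use strand, so part of their reads cannot be told apart.

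The genes of profiles C and D were long, with a median exon length of 5277 and 4705.5 bases, against 3836 bases over all genes tested. Profile A had 3957 bases and profile B had 2201. Embryos differed in how their levels leaned with exon length. For each gene an embryo's deviation from the mean log2 CPM of the 9 embryos was taken, and its slope on log2 exon length was computed. The slope was 0.103 in embryo 9, 0.0840 in embryo 8 and 0.0761 in embryo 6, and between -0.0739 and -0.00712 in the other 6. Its sign is relative to the other embryos. When each embryo's smooth relation with length was removed, 159 genes were called, 148 of them among the 162.

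**Figure D3:**
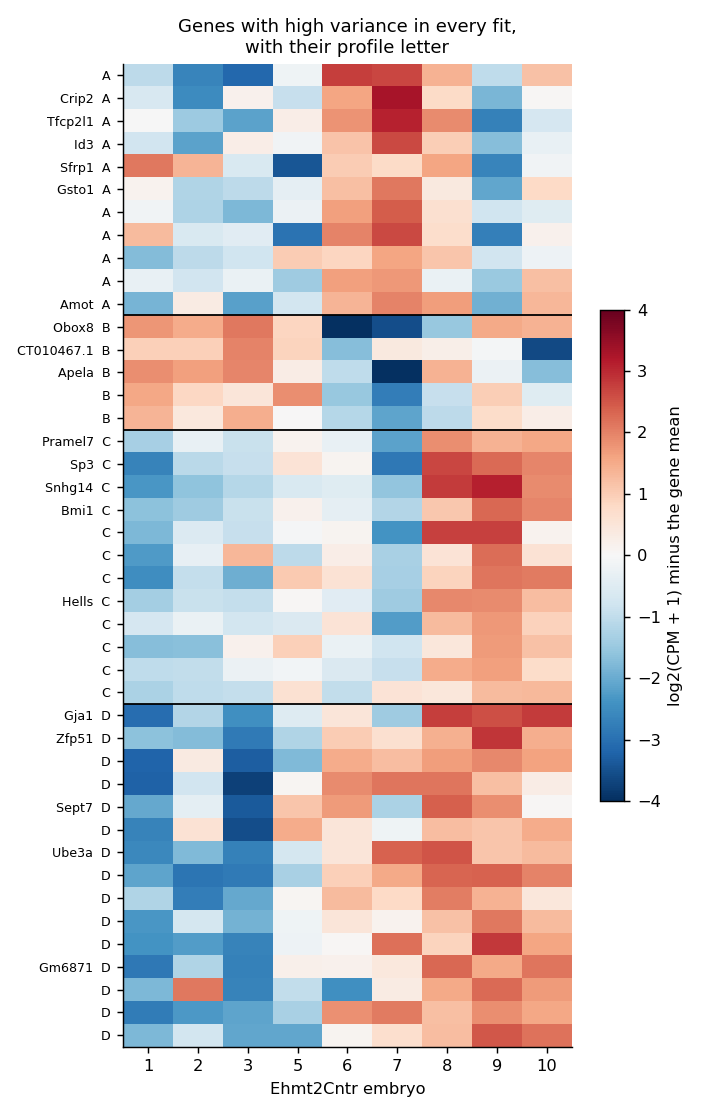
Level of the 43 genes with high variance in every fit (rows, each with its profile letter, and with its symbol where the text gives the gene) in the 9 Ehmt2Cntr embryos (columns), as log2(CPM + 1) minus the gene's own mean, with colours saturating at 4 units. Most genes of profile A are high in embryos 6 and 7, with Sfrp1 (highest in embryo 1, at 232 CPM) an exception. Most of profile B are low there, while the ribosomal RNA model CT010467.1 is lowest in embryo 10. Profiles C and D are on average high in embryos 8 and 9.

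Genes that rested on 1 embryo included Tdrp, with 341 CPM in embryo 7 and 9.01 to 126 CPM elsewhere, whose ratio of 5.598 fell to 2.16 without embryo 7. Inka1, an inhibitor of PAK4, had 386 CPM in embryo 3 against 15.2 to 161 CPM. Nr1d2 (Rev-erb beta), a repressor of the circadian clock, had 255 CPM in embryo 9 against 7.85 to 106 CPM. Ubtfl1, an embryonic relative of the RNA polymerase I factor Ubtf, had 266 CPM in embryo 9 against 4.92 to 137.5 CPM.

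Promoters were examined because 1 feature of strongly regulated genes is a TATA box. The motif TATAAA was searched on the strand of the gene, from 45 to 20 bases before the start, in RefSeq promoters of GRCm38.p6 that reach from 250 bases before to 50 bases after the start. A gene was counted as holding the motif if any of its promoters did. Of the 162 high-variance genes 122 had a promoter in the table and 4 held the motif (3.28%). It was held by 54 of 6068 tested genes (0.89%) and 4 of 722 low-variance genes (0.554%). Of all 32851 promoters of the table, counted singly and not per gene, 2.01% held it, so this share is not on the same footing. Among the genes that stayed high in every fit, 1 of 34 held the motif (2.94%), Tfcp2l1. The ratios of Jarid2, Phlda2 and Oog3 fell under 3 in at least 1 fit that left out an embryo. No test was run on these counts, and a match is a description of the letters only. The 4 promoters are printed because they are the only ones of the high-variance genes with the motif, which is in capitals, and each is written on the strand of its gene. The first 3 belong to profile A, at chr1:118627695-118627994 (plus strand), chr13:44731021-44731320 (plus) and chr7:143502475-143502774 (minus), and Oog3 of profile B is at chr4:144162602-144162901 (minus).
Tfcp2l1: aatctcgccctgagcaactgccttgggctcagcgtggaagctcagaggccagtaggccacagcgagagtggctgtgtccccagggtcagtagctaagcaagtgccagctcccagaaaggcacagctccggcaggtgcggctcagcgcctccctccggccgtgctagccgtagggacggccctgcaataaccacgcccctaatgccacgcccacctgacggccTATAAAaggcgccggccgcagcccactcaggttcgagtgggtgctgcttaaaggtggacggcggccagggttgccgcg
Jarid2: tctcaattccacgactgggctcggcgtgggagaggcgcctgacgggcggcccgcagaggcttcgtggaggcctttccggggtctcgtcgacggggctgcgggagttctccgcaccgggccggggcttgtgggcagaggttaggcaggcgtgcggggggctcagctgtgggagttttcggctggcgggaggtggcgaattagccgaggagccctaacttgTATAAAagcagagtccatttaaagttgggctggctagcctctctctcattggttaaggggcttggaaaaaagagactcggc
Phlda2: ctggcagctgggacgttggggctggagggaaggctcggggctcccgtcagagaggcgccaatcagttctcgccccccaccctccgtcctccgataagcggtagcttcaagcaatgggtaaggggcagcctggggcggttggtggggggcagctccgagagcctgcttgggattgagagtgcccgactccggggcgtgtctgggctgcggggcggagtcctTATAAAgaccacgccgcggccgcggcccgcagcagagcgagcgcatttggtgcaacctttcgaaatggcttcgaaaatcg
Oog3: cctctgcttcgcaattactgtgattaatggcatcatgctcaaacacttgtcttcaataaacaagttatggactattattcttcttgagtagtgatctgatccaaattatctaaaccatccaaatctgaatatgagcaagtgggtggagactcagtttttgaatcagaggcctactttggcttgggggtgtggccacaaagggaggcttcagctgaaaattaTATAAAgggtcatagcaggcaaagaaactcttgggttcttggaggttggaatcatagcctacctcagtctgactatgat
The motif began 28 bases before the start in Tfcp2l1, 31 in Jarid2, 30 in Phlda2 and 29 in Oog3. The number of CpG dinucleotides in these 300 bases was 21, 23, 26 and 1, against a median of 24 over the tested genes. Phlda2, an imprinted gene that limits placental growth, had 0.727 CPM in embryo 9 and 39.7 CPM in embryos 3 and 6.

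By functional class, high variance was most frequent in cleavage-stage multicopy families (3 of 11 tested), genes of the mitochondrial genome (3 of 25), pluripotency and lineage regulators (3 of 35) and zinc finger genes (10 of 132, 7.58%), against 2.06% of all genes. The mitochondrial calls were mt-Nd2, mt-Nd5 and mt-Nd6, all complex I subunits. mt-Nd2 had 2295 CPM in embryo 1, a median of 11180 CPM and 25690 CPM in embryo 8. mt-Nd6 lies on the other strand than mt-Nd5 and overlaps it by 14 bases, where unstranded reads cannot be told apart. None of the 3 mitochondrial calls stayed at or above 3 in every fit, and with DESeq2 1 of 25 was called. The count of zinc finger calls was 8 when length was removed, 12 without embryo 10, 15 of 132 with DESeq2 (2.87% of all genes) and 20 of 132 with the variance of log2 CPM (6.18% of all genes). No high-variance gene was found among 87 cytosolic ribosomal protein genes, 77 nuclear subunits of oxidative phosphorylation, 76 mitochondrial ribosomal proteins, 124 ribosome assembly factors, 62 translation factors and 45 proteasome genes. Where 2.06% of all genes were called, few calls are expected in any 1 of these classes, so each 0 says little by itself. Not every 0 held in the alternatives. With no filter 2 of 51 proteasome genes were called (12.9% of all genes). With the variance of log2 CPM 1 of 77 oxidative phosphorylation genes was called (6.18% of all genes).

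Low variance was most frequent among the nuclear subunits of oxidative phosphorylation, with 33 of 77 (42.9%) against 12.1% of all genes tested. Their median ratio was 0.421, against 0.784 over all genes. Across the alternatives in normalization, filter, tool, depth and length the class kept 28.6% to 55.3% low-variance genes while all genes had 6.57% to 14.9%. Proteasome genes had 10 of 45 (22.2%) and mitochondrial ribosomal proteins 15 of 76 (19.7%). With the variance of log2 CPM both were at the background, with 3 of 45 and 5 of 76 (6.67% and 6.58%, against 6.57% of all genes). Without embryo 10 the counts were 31 of 77 oxidative phosphorylation, 9 of 45 proteasome and 20 of 76 mitochondrial ribosomal genes, against 14.3% of all genes. Cytosolic ribosomal proteins had 11 of 87 (12.6%), near the background. They had 21 of 87 without embryo 10 (24.1% against 14.3% of all genes), 21 of 87 with length removed (against 11.9%), 18 of 87 with DESeq2 (20.7% against 12.3%) and 26 of 90 with no filter (28.9% against 14.9%). The mitochondrial genome, which encodes the partners of the nuclear subunits in the same complexes, had 0 low-variance genes of 25 and a median ratio of 1.67. With no filter it had 7 of 28 (25% against 14.9% of all genes) and a median ratio of 1.075, and with length removed 1 of 25.

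The genes with the least spread were of many kinds. Rabac1, a membrane protein that binds Rab proteins, had 39.5 to 53.8 CPM over the 9 embryos (ratio 0.0279), and Epn2, an endocytic epsin, had 157 to 190 CPM (ratio 0.0351). Ndufs3, a complex I subunit, had 31.2 to 44.3 CPM (ratio 0.0356). Arih2, a ubiquitin ligase, stayed between 807 and 1022 CPM (ratio 0.0389), and Gnl3 (nucleostemin) between 426 and 537 CPM (ratio 0.0488). Of the 12 least variable genes, Gm4353, Gm17139 and Vdac3-ps1 share 83.1%, 91.8% and 81.8% of their 50-base windows with other annotated transcripts, so their counts are uncertain. Fgfr1, Gata4 and Tead4 had ratios of 1.95, 1.00 and 0.453.

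The same measure in the 10 Ehmt2Mat embryos, fitted on their own with the zygotic genotypes -/- and +/- pooled, tested 7246 of these genes. There 134 genes (1.85%) were high-variance, and 28 were high in both sets, which is 20% of the 140 control genes tested in both and 20.9% of the 134. The median ratio in Ehmt2Mat embryos was 1.54 for the high-variance genes of controls and 0.763 for all genes. Of the 43 genes that did not rest on 1 control embryo, 40 were tested and 9 were high there. By profile the share was 11 of 38 in A, 2 of 20 in B, 6 of 43 in C and 9 of 39 in D. Gsto1 (4.02), Sfrp1 (3.91), Pramel7 (3.37), Crip2 (3.11) and Tfcp2l1 (3.06) were high-variance in both, while Gja1 (2.20) and Obox8 (2.92) were above the trend in Ehmt2Mat embryos without reaching 3. Zfp51 (1.09), Sp3 (1.21) and Gm6871 (1.08) lay near the trend there. These are other embryos, but the amplification protocol was shared and litters are not given, and the parts of embryo and protocol cannot be told apart.

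Lists of stage and lineage genes differed between embryos, in ways that depend on the scale. The mean log2(CPM + 1) of 23 trophectoderm genes was 4.35 in embryo 7, 4.13 in embryo 10 and 3.87 in embryo 6, against 2.81 to 3.29 in the other 6. By summed CPM, which the abundant Hand1 dominates, the order was another, with 2135 CPM in embryo 3, 2050 in embryo 1, 1960 in embryo 7, 1782 in embryo 6 and 1670 in embryo 10. Cdx2, the regulator that defines trophectoderm, had 33.1 CPM in embryo 7, 12.3 in embryo 6 and 8.00 in embryo 8, against at most 0.0606 CPM in the others. Embryo 10 had no Cdx2 count, and its list value stands beside the oviduct and fibroblast markers given above, whose part was not tested. Dab2, an endocytic adaptor of both extra-embryonic lineages, was the list's only high-variance gene of 9 tested, where 2.06% of all genes were. It had 350 CPM in embryo 7, 220 in embryo 6 and 23.1 to 100 CPM elsewhere. Its ratio of 4.01 fell to 2.64 without embryo 7, so the call rested on that embryo.

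The 29 oocyte transcripts ran the other way, with a mean of 1.67 in embryo 7 and 2.22 in embryo 6 against 2.90 to 3.82 elsewhere, the highest being embryo 3. Btg4, the adaptor that drives decay of maternal messages, had 3.03 CPM in embryo 6, 6.85 in embryo 7 and 18.8 to 79.0 CPM in the others. Of 12 tested oocyte transcripts 0 were high-variance, against 2.06% of all genes tested, so 0 of 12 says little about them. The 9 genes of the subcortical maternal complex, which holds stored components under the cell surface, had their lowest mean in embryo 7 (2.37) and their highest in embryo 3 (4.10). Khdc3 of that complex went against its list, with 211 CPM in embryo 7 and 13.7 to 103 CPM elsewhere. By summed CPM the list of that complex was lowest in embryo 10 (98.7), and embryo 7 (282) was close to the highest, embryo 3 (288). The 20 pluripotency genes had 6.78 in embryo 7 and 6.10 to 6.43 in the others, and Pou5f1 had 370 CPM in embryo 6, 288 in embryo 7 and 61.1 to 153 CPM elsewhere (ratio 2.82). The compaction and polarity list was lowest in embryos 1, 5 and 2 (4.85, 5.00 and 5.07) and 5.48 to 5.97 in the rest. By summed CPM the order was another, with 1383 in embryo 2, 1756 in embryo 3, 1808 in embryo 1, 1866 in embryo 5 and 1873 in embryo 10. The 15 housekeeping genes stayed between 5.84 and 6.31 on the log scale, but their summed CPM ran from 3634 in embryo 1 to 6557 in embryo 5. All embryos had the same nominal age, and whether they differed in developmental time was not tested.

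**Figure D4:**
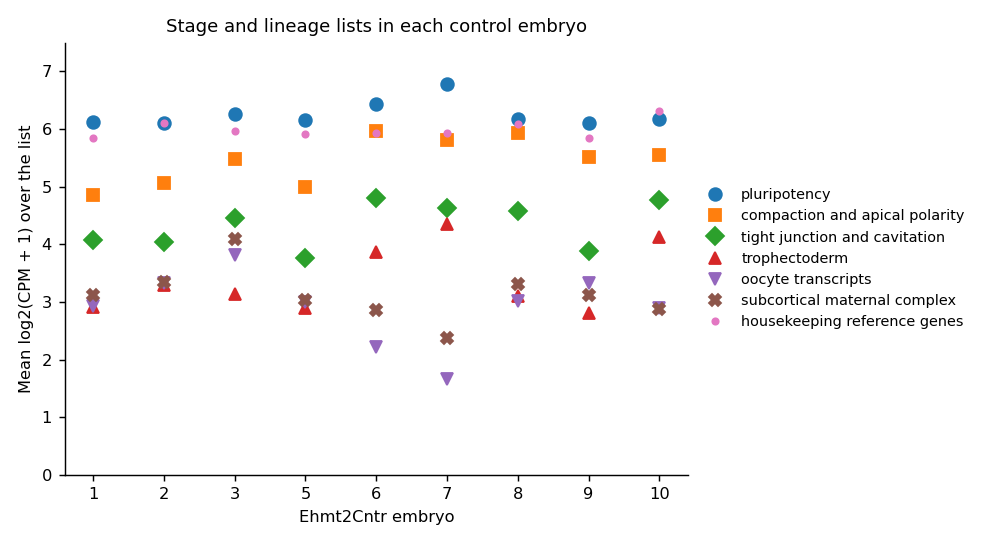
Mean log2(CPM + 1) over the members of 7 gene lists (y axis) in each Ehmt2Cntr embryo (x axis), 1 marker per list and embryo. Embryos 6 and 7 have the lowest oocyte transcripts (2.22 and 1.67). With embryo 10, whose oviduct and fibroblast markers are also high, they have the highest trophectoderm and tight junction genes on this scale. Housekeeping genes stay between 5.84 and 6.31 on this scale, and between 3634 and 6557 by summed CPM.

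The filter asks for counts in every embryo, so genes silent in some embryos were not among the 7880. A filter on the mean alone (at least 1 CPM), chosen after seeing this, tested 12335 genes and called 625 (5.07%). Of these, 113 were among the 162 called before, and 77 others had a mean of at least 10 CPM and had not been tested before. The largest ratios belonged to Tmsb4x, thymosin beta 4, with 407 CPM in embryo 10 and at most 3.18 CPM elsewhere, and to Ovgp1. Gstm1, a glutathione transferase, had 116 CPM in embryo 10 and at most 2.87 CPM elsewhere. Sox17, a primitive endoderm and endothelial gene, had 14.7 CPM in embryo 10, 0.497 in embryo 8 and no count in the other 7. These move with the fibroblast and oviduct markers of embryo 10 given above, and the part of such cells in them was not tested.

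Other genes of that kind were highest in embryo 6 or 7. Pdzd3, a scaffold of apical membranes, had 103 and 99.7 CPM there, 27.5 in embryo 8 and 0 to 6.10 CPM in the others. Apoa1, the apolipoprotein of HDL, had 98.8 CPM in embryo 7, 33.6 in embryo 6, 4.25 in embryo 8 and at most 0.587 CPM elsewhere. Eomes, a trophectoderm T-box factor, had 86.1 CPM in embryo 7, 18.4 in embryo 2, 13.1 in embryo 6, 12.9 in embryo 10 and 0 to 4.42 CPM in the others. Pard6b, a polarity protein of the apical domain, had 186 CPM in embryo 7, 68.0 in embryo 6, 50.3 in embryo 8 and 0.173 to 34.1 CPM in the others. In contrast Bex1, an X-linked gene, had 150 CPM in embryo 3, 11.2 to 71.8 CPM in 5 further embryos and at most 2.37 CPM in embryos 2, 6 and 8.

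Sex-linked genes split the embryos. Xist, the RNA that coats the inactive X chromosome, had 78.6 to 182 CPM in embryos 3, 5, 9 and 10 and 0.268 to 1.44 CPM in the other 5. The Y-linked translation factor Eif2s3y had 68.1 to 112 CPM in those 5 and at most 0.701 CPM in the first 4, and Ddx3y, a Y-linked helicase, had 11.1 to 196 CPM against at most 0.424 CPM.

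**Figure D5:**
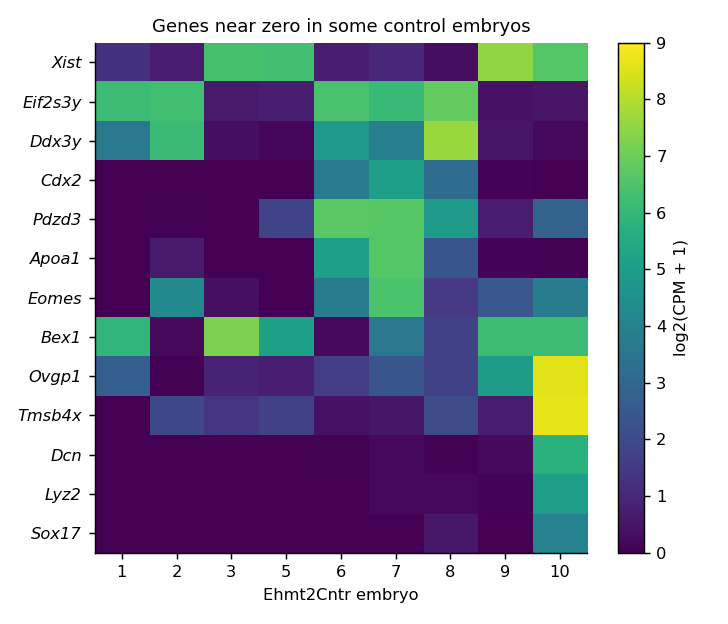
Level of 13 genes that are near 0 in some Ehmt2Cntr embryos (columns), as log2(CPM + 1). Xist and the Y-linked pair are complementary, Pdzd3 and Apoa1 mark embryos 6 and 7, and Tmsb4x, Ovgp1, Dcn, Lyz2 and Sox17 are highest in embryo 10.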

How the data were processed

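RNA of single 8C embryos was amplified with a bias to 3′ ends and sequenced as single-end 50 bp reads. The authors deposited raw counts per gene, without normalization, for 34937 Ensembl genes (release 82, GRCm38/mm10). Per the file headers, featureCounts 1.5.0 counted exons without strand, with an overlap of at least 10 bases, for every gene overlapped and with the option that counts multi-mapping reads, if the alignments held any. The aligner is not named there, although the input carries the tag m1, and the processing notes list TopHat2. The paper used bowtie, keeping uniquely mapping reads, for transposable elements. The deposited files also give each gene's exon length, used for CPM per kilobase. A gene symbol was found for 34599 genes.

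CPM were counts over TMM-scaled totals. Dispersions came from edgeR 4.0.16 (R 4.3.3) with filterByExpr, an intercept-only design and a prior of 0 degrees of freedom. No test was run, and the 9 controls formed a single group. The 10 Ehmt2Mat embryos were fitted apart. The scripts were tested on simulated data. Total counts of 12985149 to 30053248 limited precision only for rare genes.

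Genes were named by a rule: the 15 highest by CPM and by CPM per kilobase, the 24 most variable that did not rest on 1 embryo, the 12 least variable, 6 that rested on 1 embryo (the last 3 groups at a mean of at least 10 CPM), the genes of the study, and leaders of each class and list. Further members of profiles, of the filter on the mean and of the promoter match were named after their values were seen. Members, lists and rules were chosen with earlier results of these data known. Some genes that met the rule are not reported here. Alternatives were RLE and upper-quartile factors, other filters, DESeq2 1.42.0, the variance of log2 CPM (prior count 2), thinned counts, removal of mitochondrial genes or of the length relation, thresholds of 2 and 5, and each embryo left out.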

Additional observations from a re-analysis of the deposited data

Results flagged for a closer look

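Of 127 values examined over the 9 embryos, 9 had 1 embryo far from the other 8 by Dixon's ratio of gap to range, and chance alone flags about 1 in 20. Marker lists were judged on their mean log2(CPM + 1) and genes on log2(CPM + 1), while the values given are CPM. Embryo 10 accounted for 5 of them. It had 16142 genes with a count against 12068 to 13230, oviduct markers at 460 CPM against 0.768 to 39.1, blood and immune markers at 125 CPM against 44.4 to 95.1 (a mean log2 value of 1.94 against 0.460 to 0.810), fibroblast markers at 131 CPM against 0 to 9.08, and Sox17 at 14.7 CPM against 0 to 0.497. In that embryo 931 genes reached 1 CPM that were under 1 CPM in all others, against 122 to 273 such genes in each of the other 8.

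Embryo 9 had the highest share of zinc finger genes, 1.25% of counts against 0.896% to 1.04%, and the lowest Rpl8, 778 CPM against 1417 to 2546. Its share of cytosolic ribosomal proteins was also the lowest, at 1.23%, and its slope on exon length the highest, at 0.103. The part of length in these values was not tested. Embryo 7 had the highest pluripotency list, 4406 CPM summed against 2481 to 4053, or a mean log2 value of 6.78 against 6.10 to 6.43. Embryo 1 had the lowest Arih2, 807 CPM against 911 to 1022, in a gene whose whole range is narrow.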

How the results depend on the processing

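The number of high-variance genes (162) stayed within 1.5 times under RLE and upper-quartile factors, a minimum of 10 counts, DESeq2, thinning, and removal of mitochondrial genes or length. It was 2422 with no filter, 625 with the added filter on the mean, 487 with the variance of log2 CPM, 584 at a threshold of 2 and 22 at a threshold of 5. The number of low-variance genes (952) became 2805, 1892, 518, 2123 and 271 in the same order. Of the 162 high-variance genes, 96 were still called with no filter, 113 with the filter on the mean and 157 with the variance of log2 CPM. With 1 embryo left out 119 to 149 of them were. Leaving out each embryo gave 164 to 185 high-variance and 1037 to 1135 low-variance genes. The number that did not rest on 1 embryo (43) was 166 at a threshold of 2 and 4 at a threshold of 5, and 44 with RLE and 39 with length removed, all added after seeing the data. Genes shared with Ehmt2Mat embryos (28) became 122 at a threshold of 2, and were 23 to 30 when a control was left out. Per kilobase the share of the mitochondrial genome rose from 12.6% to 28.6%, that of ribosomal proteins from 2.12% to 3.40%, and that of the 100 highest genes from 27.2% to 44.4%, because short genes weigh more. Without mitochondrial genes the 100 highest took 17.8%. Leaving out each embryo gave 11.6% to 13.4%, 2.05% to 2.23% and 26.4% to 28.0% for the 3 shares. The number of genes detected in all 9 embryos was 4950 at 10 CPM instead of 7567 at 1 CPM, and 7575 to 7751 at 1 CPM in the remaining embryos with 1 left out. Over named genes and alternatives, 2661 of 2801 ratios kept their side of the thresholds, 44 lost a call, 96 gained one and 0 reversed. No paired analysis was possible because no groups were compared.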
